A study of Mus musculus with 3 samples.

Results

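The immediate early and heat shock genes described here are 10 of the 24335 genes in a single-cell RNA count matrix of the mouse epididymis: Fos, Fosb, Jun, Junb, Egr1, Atf3, Ier2, Dusp1, Hspa1a and Hspa1b. They were chosen by name as genes that cells switch on quickly under stimulation or stress, and all 10 names were found. The epididymides came from untreated wild-type C57BL/6 males aged 56 days and were cut into caput (head), corpus (body) and cauda (tail). Each region gave 1 library, so there is no replicate spread: no difference below carries a test, and region, library and animal cannot be told apart. Tissue pieces were digested with an enzyme solution at 37 °C for 15 min, passed through a 40 µm strainer, treated with a red cell lysis buffer at 25 °C for 10 min and loaded on a Singleron GEXSCOPE chip, so every cell had been through the same steps before its RNA was captured.

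Immediate early genes are transcribed within minutes of a stimulus without new protein synthesis, because the factors that switch them on are already present and are activated by kinases. Fos and Fosb pair with Jun and Junb as leucine-zipper proteins to form the transcription factor AP-1. Egr1 is a zinc-finger factor, Atf3 a leucine-zipper factor of the stress response, Ier2 a small nuclear protein, and Dusp1 a phosphatase that removes the activating phosphates from MAP kinases. Hspa1a and Hspa1b encode the stress-inducible HSP70 chaperone, which is switched on by the heat shock factor HSF1 when proteins misfold. Tissue dissociation is known to induce many of these genes, so single-cell levels need not be those of the intact organ.

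Promoters of 5 members are shown, with matches to some response elements and general promoter elements marked. Each line is the 150 bases before the RefSeq start site on the gene's own strand (GRCm38.p6); capitals mark matches to TGACG or TGACNTCA (cyclic AMP response type), TATAAA, GAANNTTC (paired heat shock units) or CCAAT, which reads ATTGG on the other strand. Overlapping matches are written as one run, as in Dusp1, where TGACG lies inside TGACNTCA.
Fos, chr12:85473740-85473889, plus strand: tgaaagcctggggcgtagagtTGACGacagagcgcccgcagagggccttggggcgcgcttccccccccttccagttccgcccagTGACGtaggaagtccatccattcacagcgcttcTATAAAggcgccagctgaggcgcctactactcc
Jun, chr4:95052223-95052372, minus strand: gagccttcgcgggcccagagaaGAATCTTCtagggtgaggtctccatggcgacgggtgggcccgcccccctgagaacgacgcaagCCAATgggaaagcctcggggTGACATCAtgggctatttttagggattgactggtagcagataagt
Dusp1, chr17:26508473-26508622, minus strand: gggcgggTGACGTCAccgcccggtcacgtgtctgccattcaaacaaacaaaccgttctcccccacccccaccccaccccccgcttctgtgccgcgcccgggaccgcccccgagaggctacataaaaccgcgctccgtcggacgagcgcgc
Hspa1a, chr17:34972157-34972306, minus strand: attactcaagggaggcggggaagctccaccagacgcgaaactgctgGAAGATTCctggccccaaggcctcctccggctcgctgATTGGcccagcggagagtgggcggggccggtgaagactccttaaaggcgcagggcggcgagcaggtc
Hspa1b, chr17:34959239-34959388, minus strand: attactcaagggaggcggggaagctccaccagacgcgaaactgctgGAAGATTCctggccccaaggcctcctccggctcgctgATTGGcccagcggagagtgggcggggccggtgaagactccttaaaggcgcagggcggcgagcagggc

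Of the 10 members, 8 had a promoter entry of 300 bases, from 250 before to 50 after the start, and both strands were searched. TGACG was found in 5 of the 8, against 20.8% of 32851 promoters of the same length. TGACNTCA, which holds TGACG only where N is G, was found in 2 of the 8 (Jun and Dusp1), against 8.83%. GAANNTTC was found in 3 of the 8 (Jun, Hspa1a and Hspa1b), against 7.86%, and CCAAT in 5, against 37.4%. TATAAA was found in 2, against 13.6%, and the zinc-finger motif GCGNGGGCG in 1, against 5.55%. The AP-1 motif TGANTCA (7.81% of promoters) and the CArG box (1.63%) had no match in these windows. Bases further from the start site were not searched. A match is a description of letters, not a site. Hspa1a and Hspa1b, neighbours on chromosome 17, differed at 4 of the 300 bases. Only 1 of these lies in the stretch printed above, T-2G, with the Hspa1a base first, the Hspa1b base last and −1 as the base before the start site.

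In the GENCODE annotation of GRCm38.p6, Fos lies on the plus strand of chromosome 12 (85473890 to 85477273), Fosb on the minus strand of chromosome 7 (19302696 to 19310051) and Jun on the minus strand of chromosome 4 (95049034 to 95052222). Junb (84974484 to 84978718) and Ier2 (84661331 to 84662852) are both on the minus strand of chromosome 8, Atf3 on that of chromosome 1 (191170296 to 191218039) and Egr1 on the plus strand of chromosome 18 (34859823 to 34864984). Dusp1 (26505590 to 26562128), Hspa1a (34969190 to 34972156) and Hspa1b (34956436 to 34959238) are on the minus strand of chromosome 17. Jun overlaps Junos, Junb overlaps Prdx2 and Dusp1 overlaps Ergic1 on the opposite strand, and no source used here says whether the counting used strand, so reads of these pairs may not have been told apart.

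Cells with at least 200 detected genes were kept, 4939 in caput, 4831 in corpus and 4785 in cauda. The libraries held 41500792, 21495211 and 18341476 UMIs (unique molecular identifiers, one per captured transcript), with medians of 5077, 2654 and 2198 UMIs a kept cell. The share of cells with over 20% mitochondrial UMIs was 3.38% in caput, 28.5% in corpus and 25.9% in cauda. Cell barcodes shared between libraries numbered 14 (caput and corpus), 21 (caput and cauda) and 14 (corpus and cauda). Cell types were gated on marker genes that exclude the members and are called by the type with "-like" added. Principal-like cells, the secretory epithelium, were 51.0% of the caput library, 52.9% of the corpus library and 25.3% of the cauda library, and all 34 of their markers were detected in caput and corpus but 32 in cauda, where Lcn10 and Rnase13 were at 0. None of these markers was among the 10 leading genes of the cauda principal-like cells. Fibroblast-like cells made up 3.30%, 8.71% and 29.9%, macrophage-like cells 2.11%, 4.39% and 10.4%, and cells that passed no gate 14.6%, 13.8% and 24.5%.

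Over all cells, 9 of the 10 members had their highest level in the cauda library. Levels are given in CPM (a gene's UMIs scaled to a common total), and intervals are exact 95% Poisson intervals that, like all intervals here, cover counting error only. Fos stood at 2436 CPM in caput, 2329 in corpus and 4665 in cauda. Fosb stood at 132, 161 and 409 CPM in the same order. The cauda level of both was far outside the counting interval of the other regions. Jun stood at 2562 CPM in caput, 1729 in corpus and 3138 in cauda, and Junb at 666, 604 and 1401 CPM. Jun was the AP-1 gene with the smallest cauda excess over caput. Egr1 stood at 652 CPM in caput, 774 in corpus and 1815 in cauda. Atf3 had 783 CPM in caput and 793 in corpus, whose intervals overlapped (774 to 791 and 781 to 805), and 1613 in cauda. Dusp1 stood at 464 CPM in caput, 489 in corpus and 1415 in cauda. Ier2 differed from the rest, with its highest level in caput: 742 CPM, against 428 in corpus and 684 in cauda. Hspa1a stood at 207 CPM in caput, 222 in corpus and 380.4 in cauda, and Hspa1b at 52.2, 73.4 and 179 CPM. Summed, the 10 members took 8696 CPM in caput, 7604 in corpus and 15700.2 in cauda.

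**Figure D1:**
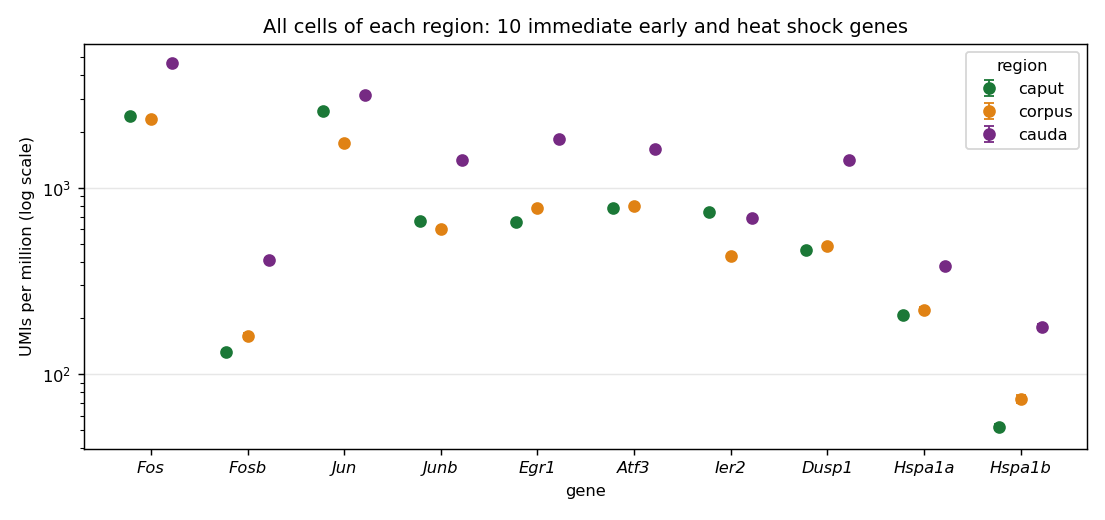
Level of each member over all cells of the caput, corpus and cauda libraries, in CPM on a log axis, 1 dot a library; the 95% Poisson bars are smaller than the dots. The cauda dot is the highest of the 3 for 9 of the 10 members, and the caput dot is the highest for Ier2.

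A member was counted as different under 3 conditions: a CPM ratio of 2-fold or more, an exact 95% interval of that ratio on one side of 1, and 20 or more UMIs where it was higher. Between caput and corpus 0 members were higher, where 12% of 17111 genes were, and 0 were lower, where 14.6% of genes were. Between caput and cauda 6 members were lower in caput (Fosb, Junb, Egr1, Atf3, Dusp1 and Hspa1b), where 21.3% of 17113 genes were, and 0 were higher, where 17.7% were. Between corpus and cauda 7 were lower in corpus (the same 6 and Fos), where 16.6% of 16011 genes were, and 0 were higher, where 12.6% were. The median log2 ratio of the members was −0.05 for caput over corpus, against 0.04 for all genes, −1.06 for caput over cauda, against 0.01, and −1.12 for corpus over cauda, against −0.08. Hspa1b had the lowest caput over cauda ratio at 0.291, followed by Fosb at 0.323, Dusp1 at 0.328 and Egr1 at 0.359, while Jun stood at 0.817 and Ier2 at 1.09 (1.06 to 1.11). At a stricter rule (4-fold, an interval beyond 2 and 100 UMIs) 0 members were counted. For caput over corpus 4.82% of genes were higher and 4.25% lower by that rule, for caput over cauda 6.97% and 8.29%, and for corpus over cauda 2.67% and 3.33%.

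Most of the member UMIs of the cauda came from cells that were few in caput. Fibroblast-like cells held 44.9% of the cauda's member UMIs, macrophage-like cells 16.7% and principal-like cells 10.9%. Of all UMIs of the cauda these types held 32.7%, 10.6% and 27.7%. In caput the member shares were 2.74% for fibroblast-like, 1.99% for macrophage-like and 36.0% for principal-like cells, against 1.55%, 0.781% and 63.7% of all UMIs. Caput basal-like cells held 16.7% of member UMIs and 7.49% of all UMIs, and clear-like cells 11.4% and 5.75%. In corpus principal-like cells held 31.1% of member UMIs and 58.0% of all UMIs, and fibroblast-like cells 17.7% and 7.57%. Principal-like cells had the lowest summed member level of the epithelial types in each region, and their share of cells was lower in cauda.

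Giving equal weight to the 5 cell types with at least 50 cells in every region (principal-, clear-, basal-, fibroblast- and macrophage-like) raised the caput over cauda and corpus over cauda ratios of all 10 members. In cauda the clear-like and basal-like parts rested on 97 and 59 cells, and the ratios at equal composition carry no interval. At equal composition the caput over cauda ratio of the members had a median of 0.936 (range 0.616 to 1.30), against 0.480 (0.291 to 1.09) over all cells, and 5 of 10 ratios were below 1. The corpus over cauda ratio had a median of 0.823 (0.642 to 0.961), against 0.461 (0.346 to 0.627) over all cells, and 10 of 10 stayed below 1. No member was 2-fold different at equal composition in any pair, under the reported setting or under the 7 other settings for which all 5 types kept 50 cells. Fos had a caput over cauda ratio of 1.02 at equal composition and 0.522 over all cells, and Atf3 1.04 and 0.485. Egr1 (0.616 and 0.359), Fosb (0.656 and 0.323) and Hspa1b (0.671 and 0.291) had the lowest values at equal composition, while Dusp1 stood at 0.852 and 0.328. Ier2 had 1.30 at equal composition and 1.09 over all cells, a larger difference. Jun turned round, with 1.20 at equal composition and 0.817 over all cells, and so did Hspa1a, with 1.30 and 0.543. The caput over corpus ratios had a median of 1.10 (0.798 to 1.58) at equal composition and 0.968 (0.711 to 1.73) over all cells.

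**Figure D2:**
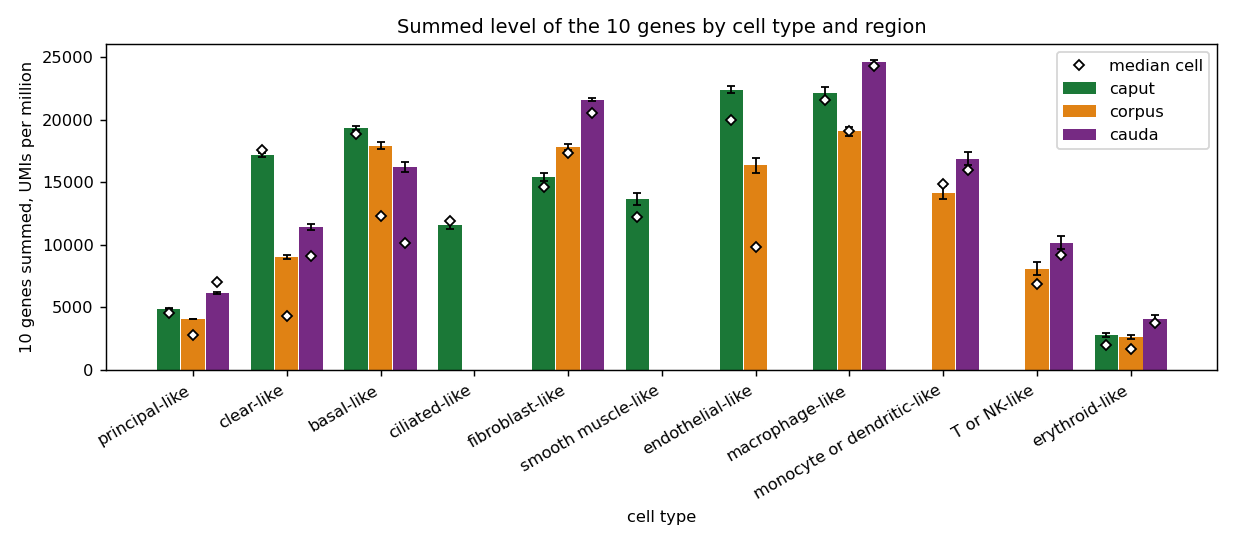
Summed level of the 10 members in each marker-gated cell type and region, in CPM; bars give the level with its 95% Poisson interval and diamonds the median cell. Macrophage-like cells stand between 19065 and 24591 CPM in the 3 regions, principal-like cells between 4083 and 6158 CPM, and erythroid-like cells at 2635 to 4083 CPM.

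By cell type, the summed level separated types more than regions. Macrophage-like cells reached 22124 CPM in caput, 19065 in corpus and 24591 in cauda, and fibroblast-like cells 15407, 17826 and 21586 CPM. Basal-like cells, which sit at the base of the epithelium, had 19353 CPM in caput, 17939 in corpus and 16211 in cauda. Clear-like cells, which acidify the lumen, had 17181 CPM in caput, 9069 in corpus and 11428 in cauda. Principal-like cells had 4912 CPM in caput, 4083 in corpus and 6158 in cauda, below each of those types in each region. Endothelial-like cells had 22411 CPM in caput and 16352 in corpus, and ciliated-like cells of the caput 11564 CPM. Monocyte or dendritic-like cells had 14173 CPM in corpus and 16879.8 in cauda, and T or NK-like cells 8096 and 10166 CPM. Smooth muscle-like cells of the caput had 13697 CPM. Cells that passed no gate had 12344, 10309 and 15703 CPM in caput, corpus and cauda.

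Among the AP-1 genes, Fos was highest in endothelial-like cells of the caput and in fibroblast-like cells of corpus and cauda. It had 5357 CPM in caput, 6355 in corpus and 7003 in cauda fibroblast-like cells, 7497 in caput endothelial-like cells and 1276, 1241 and 1844 CPM in principal-like cells of caput, corpus and cauda. In each region Fos of principal-like cells was below every other type except erythroid-like cells. Jun led in caput endothelial-like cells at 5657 CPM, in corpus basal-like cells at 4899 CPM and in cauda macrophage-like cells at 4944 CPM. Its principal-like levels were 1698 CPM in caput, 1039.5 in corpus and 1324 in cauda, so the caput was highest. Fosb was highest in caput macrophage-like cells at 358 CPM, with basal-like cells overlapping at 344, and in fibroblast-like cells of corpus (472 CPM, overlapping macrophage-like cells) and cauda (631 CPM). Junb, which counters some actions of Jun, was highest in macrophage-like cells of corpus (1689.6 CPM, overlapping T or NK-like cells) and cauda (2641 CPM), and in caput in endothelial-like (1793 CPM) and basal-like cells (1779 CPM), whose intervals overlapped. The number of Fos UMIs per Jun UMI, whose size depends on how each transcript is captured, was 0.752 in caput, 1.19 in corpus and 1.39 in cauda principal-like cells. It was 1.05, 1.06 and 0.944 in basal-like cells, so the shift between regions seen in principal-like cells was not seen in basal-like cells. It was not particular to principal-like cells, since clear-, fibroblast-, macrophage- and erythroid-like cells also had their lowest value in caput. Erythroid-like cells held 1.94 Fos and 2.30 Jun UMIs a cell in caput, 1.98 and 1.31 in corpus and 2.99 and 1.88 in cauda.

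Egr1 and Atf3 had different cell types at the top. Egr1 had 1125 CPM in caput, 2153 in corpus and 2844 in cauda fibroblast-like cells, and led in that type in corpus, overlapping endothelial-like cells, and in cauda. In caput its highest level was 1906 CPM in endothelial-like cells. Atf3 led in macrophage-like cells of every region, with 3770.1 CPM in caput, 3138 in corpus and 3379 in cauda. Atf3 of fibroblast-like cells was 504 CPM in caput, 1416 in corpus and 1893 in cauda, the widest within-type spread between regions of any member in that type. Atf3 of basal-like cells went the other way across regions, with 2205 CPM in caput, 1968 in corpus and 1164 in cauda. Principal-like cells had 353, 377 and 676 CPM of Atf3 in caput, corpus and cauda.

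Ier2 and Dusp1 also parted. Ier2 was highest in caput endothelial-like cells at 1898 CPM, and in basal-like cells it had 1661 CPM in caput, 1151 in corpus and 1325 in cauda. Ier2 of macrophage-like cells was 812, 603 and 704 CPM in caput, corpus and cauda, below that of fibroblast-like cells (994, 687 and 853 CPM) in each region. Dusp1 led in macrophage-like cells of every region, with 2069 CPM in caput, 1957 in corpus and 2894 in cauda. In principal-like cells Dusp1 had 181 CPM in caput, 141 in corpus and 293 in cauda. These were the lowest Dusp1 levels of any type in each region. Erythroid-like cells, whose CPM is diluted by haemoglobin, had 183, 176 and 490.5 CPM, overlapping principal-like cells in caput and corpus.

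Hspa1a was highest in myeloid and clear-like cells. It had 1007 CPM in caput, 869 in corpus and 815 in cauda macrophage-like cells, 983 in corpus and 1125 in cauda monocyte or dendritic-like cells, and 892, 374 and 497 CPM in clear-like cells of caput, corpus and cauda. Principal-like cells had 76.7, 123 and 135 CPM of Hspa1a in caput, corpus and cauda. Hspa1b was highest in monocyte or dendritic-like cells of corpus (401 CPM) and cauda (524 CPM). In principal-like cells it had 23.2 CPM in caput, 40.8 in corpus and 86.3 in cauda, and in fibroblast-like cells 95.2, 96.2 and 212 CPM. The cauda was thus highest for Hspa1b in both types. The share of cells with an Hspa1a UMI was 50.2% in caput, 35.5% in corpus and 41.4% in cauda. After thinning each cell to 1000 UMIs it was 19.5%, 16.3% and 25.9% (4919, 4772 and 3697 cells). The thinned shares in erythroid-like cells, red cells that make little new RNA, were 5.60%, 5.53% and 9.59%, but haemoglobin takes most UMIs of these cells, so the shares are not on one footing. With haemoglobin left out, the erythroid-like Hspa1a level relative to all cells was 0.999 (0.646 to 1.48) in caput, 0.926 (0.669 to 1.249) in corpus and 0.782 (0.463 to 1.24) in cauda. Erythroid-like cells may hold free RNA of the other cells of their library, so this ratio does not decide how far the shares exceed background. Per cell, Hspa1a of principal-like cells was 4.05 times the erythroid-like value in caput (2.74 to 6.28). It was 3.23 times that value in corpus (2.39 to 4.49) and 2.53 times in cauda (1.59 to 4.30), without adjustment for depth.

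**Figure D3:**
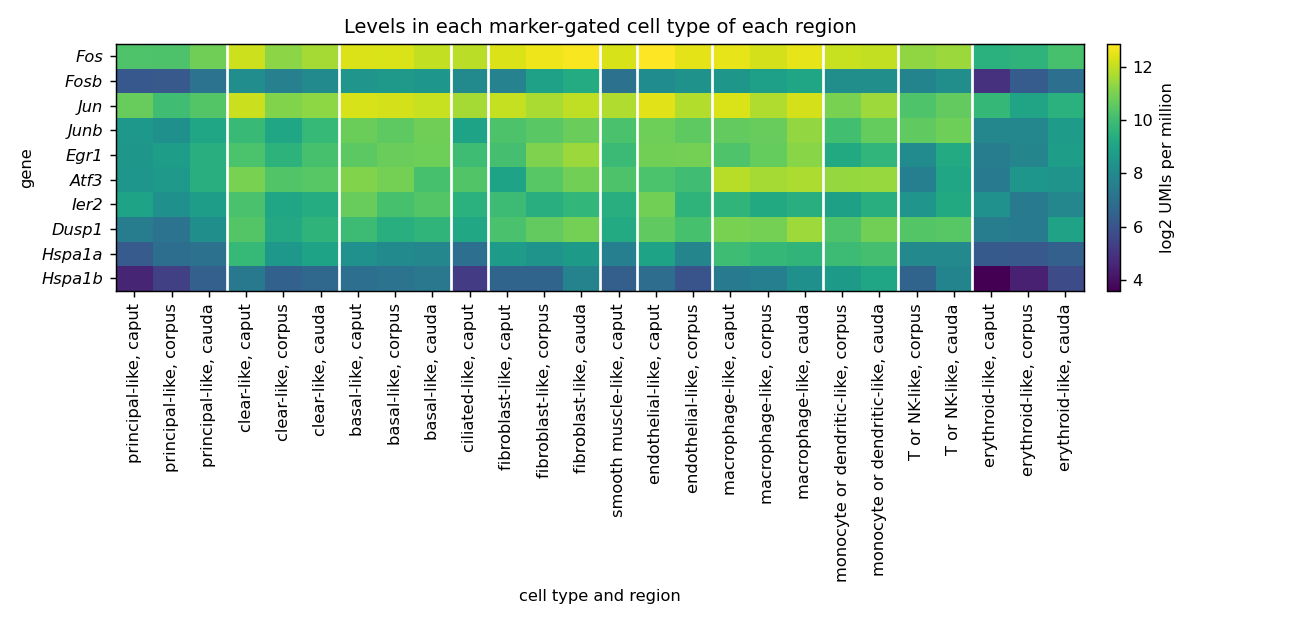
Level of each member (log2 CPM, colour) in the 26 combinations of cell type and region with at least 50 cells. Yellow is high and dark blue low; principal-like and erythroid-like columns are among the darkest for most members, and entries such as Fos in cauda fibroblast-like cells (7003 CPM) are bright. Rows are not compared with each other, since capture differs between transcripts.

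Member UMIs were also found in erythroid-like cells, in which haemoglobin took 64.0% (caput), 65.8% (corpus) and 71.2% (cauda) of UMIs, and these give a background per cell. Erythroid-like cells carried 7.44 member UMIs a cell in caput, 6.67 in corpus and 10.5 in cauda, against 51.5, 19.7 and 25.7 in principal-like cells of the same regions. With haemoglobin left out, their summed member level was 7811 CPM in caput, 7711 in corpus and 14193 in cauda, against 8780.3, 7827 and 15887 CPM over all cells treated alike (ratios 0.890, 0.985 and 0.893). A Fos UMI was found in 70.6% of erythroid-like cells in caput, 65.1% in corpus and 85.2% in cauda (median depths 2598.5, 2238 and 2210.0 UMIs), against 96.1%, 82.4% and 93.8% of all cells (medians 5077, 2654 and 2198). Thinned to 1000 UMIs, the Fos shares were 75.2%, 64.0% and 87.1% of all cells. Per cell, the median member was 7.28 times the erythroid-like value in caput, 3.13 times in corpus and 2.57 times in cauda principal-like cells. Over the other types this median ran from 2.24 (T or NK-like, cauda) to 24.2 (basal-like, caput). Dusp1 in cauda principal-like cells was not above the erythroid-like value (ratio 0.971, 0.794 to 1.20), so it cannot be told from background there. Egr1 in T or NK-like cells of corpus and cauda and Atf3 in those of the corpus were likewise not above it. These values per cell are not adjusted for depth, whose median in cauda was 1412 UMIs in principal-like and 2210 in erythroid-like cells.

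Fibroblast marker RNA was also found in other cells, most in cauda. The 12 fibroblast markers summed to 296 CPM in caput, 911 in corpus and 5781 in cauda principal-like cells, and all 12 had UMIs in each. In macrophage-like cells they summed to 589.8, 1356 and 7501 CPM in caput, corpus and cauda, with 10, 12 and 12 detected (Dpt and Pi16 at 0 in caput), and in erythroid-like cells to 444, 1747 and 8512 CPM. Clear-like cells had 902, 1182 and 7204 CPM, and basal-like cells 273, 865 and 3525 CPM. Principal-cell markers ran the other way, with 29608 CPM in caput, 6812 in corpus and 2155 in cauda fibroblast-like cells, and 37874, 8884 and 2515 CPM in macrophage-like cells. The part of such RNA in the member levels was not tested beyond a subtraction of the erythroid-like background.

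Within cell types, caput and corpus differed most in clear-like cells. There 4 of 10 members were at least 2-fold higher in caput, where 6.09% of 8569 genes were: Jun 2.00 (1.92 to 2.09), Ier2 2.27, Dusp1 2.29 and Hspa1a 2.39. None was lower, where 3.49% of genes were. For all 10 members the ratio interval lay above 1, which held for 18.6% of genes, and the median log2 ratio was 0.88, against 0.09 for all genes. The median caput clear-like cell had 17559 summed CPM, against 4336 in corpus. In fibroblast-like cells 2 members were lower in caput, Fosb at 0.440 and Atf3 at 0.356, where 6.26% of genes were, and 0 were higher (4.18%). In endothelial-like cells Ier2 (2.42) and Hspa1a (2.22) were higher in caput, where 6.28% of genes were, and 0 were lower (1.81%). Principal-like cells had 0 members higher (15.6% of genes) and 0 lower (15.4%), basal-like cells 0 higher (5.02%) and 0 lower (2.09%), and macrophage-like cells 0 higher (6.65%) and 0 lower (9.29%). In erythroid-like cells Fosb and Atf3 were lower in caput, where 15.5% of genes were, and 0 of 9 were higher (12.2%).

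Between caput and cauda the sign depended on the cell type. In clear-like cells 10 of 10 ratios were above 1 (7 with an interval above 1, which held for 17.3% of genes), from 1.05 for Egr1 to 1.83 for Ier2. In principal-like cells 8 of 10 were below 1, all but Jun (1.28) and Ier2 (1.17). The median log2 ratio was −0.76 in principal-like cells, against 0.09 for all genes, and 0.24 in basal-like cells, against 0.04. Only Hspa1b there passed the 2-fold rule, at 0.269, where 15.6% of genes were lower and 16.2% higher. In fibroblast-like cells 4 members were lower in caput, where 7.02% of genes were: Atf3 at 0.266 (0.238 to 0.297), Fosb at 0.329, Egr1 at 0.396 and Hspa1b at 0.448. None was higher there (3.47% of genes). Basal-like cells had 6 ratios above 1, Atf3 highest at 1.89, with 0 members past the rule (4.8% of genes higher, 4.07% lower), clear-like cells 0 (8.01% higher, 6.91% lower) and macrophage-like cells 0 (4.38% higher, 11.8% lower). In erythroid-like cells Fosb, Egr1 and Dusp1 were lower in caput, where 12.7% of genes were and 31.3% higher. With these, 8 of 60 combinations of member and cell type were lower and 0 higher. Without erythroid-like cells 5 were lower.

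Jun had one direction over all cells and the other within most cell types. Over all cells it was lower in caput than in cauda (0.817), while within cell types the ratio was 1.28 in principal-like, 1.74 in clear-like, 1.16 in basal-like, 1.05 (1.01 to 1.09) in fibroblast-like and 1.05 (0.994 to 1.10) in macrophage-like cells. With TMM scaling in place of the UMI total, the ratio was below 1 in fibroblast-like (0.934) and macrophage-like cells (0.965). Ier2, the member with a caput over cauda ratio above 1 over all cells, was above 1 in all 5 types, from 1.15 in macrophage-like to 1.83 in clear-like cells, and also with TMM scaling. Hspa1a was above 1 in clear-like (1.80), basal-like (1.30), macrophage-like (1.23) and fibroblast-like cells (1.07, 0.938 to 1.21) and below 1 in principal-like cells (0.568). With TMM scaling 1 of 10 fibroblast-like ratios was above 1, that of Ier2, so Hspa1a fell below 1 there. With Leiden clusters in place of gates, 1 of 10 was above 1 in fibroblast-like cells (median 0.526), against 3 as reported. In macrophage-like cells 1 of 10 then was (median 0.539), against 4 as reported.

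Between corpus and cauda most cell types differed in the same direction. All 10 ratio intervals lay below 1 in principal-like cells, which held for 24.2% of genes, and in fibroblast-like cells, which held for 13.1%. In clear-like cells 9 of 10 lay below 1 (15.5% of genes), in macrophage-like cells 9 (14.9%), in monocyte or dendritic-like cells 5 (13.5%) and in T or NK-like cells 5 (15.6%). Monocyte or dendritic-like and T or NK-like cells may hold unlike cells in corpus and cauda. Among the 10 leading genes of T or NK-like cells, Klre1, Xcl1 and Gzma appeared only in corpus and Trac, Trbc1 and Cd3g only in cauda. Among those of monocyte or dendritic-like cells, Xcr1, Flt3 and Clec9a appeared only in cauda. Basal-like cells were divided, with 3 intervals below 1 (13.1% of genes) and 3 above (8.57%), Atf3 highest at 1.69. Past the 2-fold rule were Dusp1 (0.480) and Hspa1b (0.472) in principal-like cells, where 9.83% of genes were lower, and Hspa1b (0.453) in fibroblast-like cells, where 4.38% were. The cauda level of Dusp1 in principal-like cells was not above the erythroid-like value per cell, and that call has no value after subtraction. In T or NK-like cells Egr1 (0.433), Atf3 (0.366) and Hspa1b (0.436) were lower, where 9.64% of genes were. Egr1 in both regions (1.05 times the erythroid-like value in corpus, 1.22 times in cauda) and Atf3 in corpus (0.491 times) were not above background there, and neither call has a value after subtraction. In erythroid-like cells 1 was, Dusp1, where 4.97% of genes were. No member passed it in clear-like (4.93% of genes lower), basal-like (4.16%), macrophage-like (6.59%) or monocyte or dendritic-like cells (5.63%). In the other direction 0 members passed it in any type, where 9.75% of genes did in principal-like, 4.32% in clear-like, 3.39% in basal-like, 2.39% in fibroblast-like, 2.28% in macrophage-like, 5.11% in monocyte or dendritic-like, 5.16% in T or NK-like and 19.2% in erythroid-like cells. Junb, Egr1, Ier2, Dusp1 and Hspa1b had a ratio below 1 in all 7 types other than erythroid-like cells. The median log2 ratio of all genes in these types ran from −0.13 (macrophage-like) to 0.02 (principal-like).

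**Figure D4:**
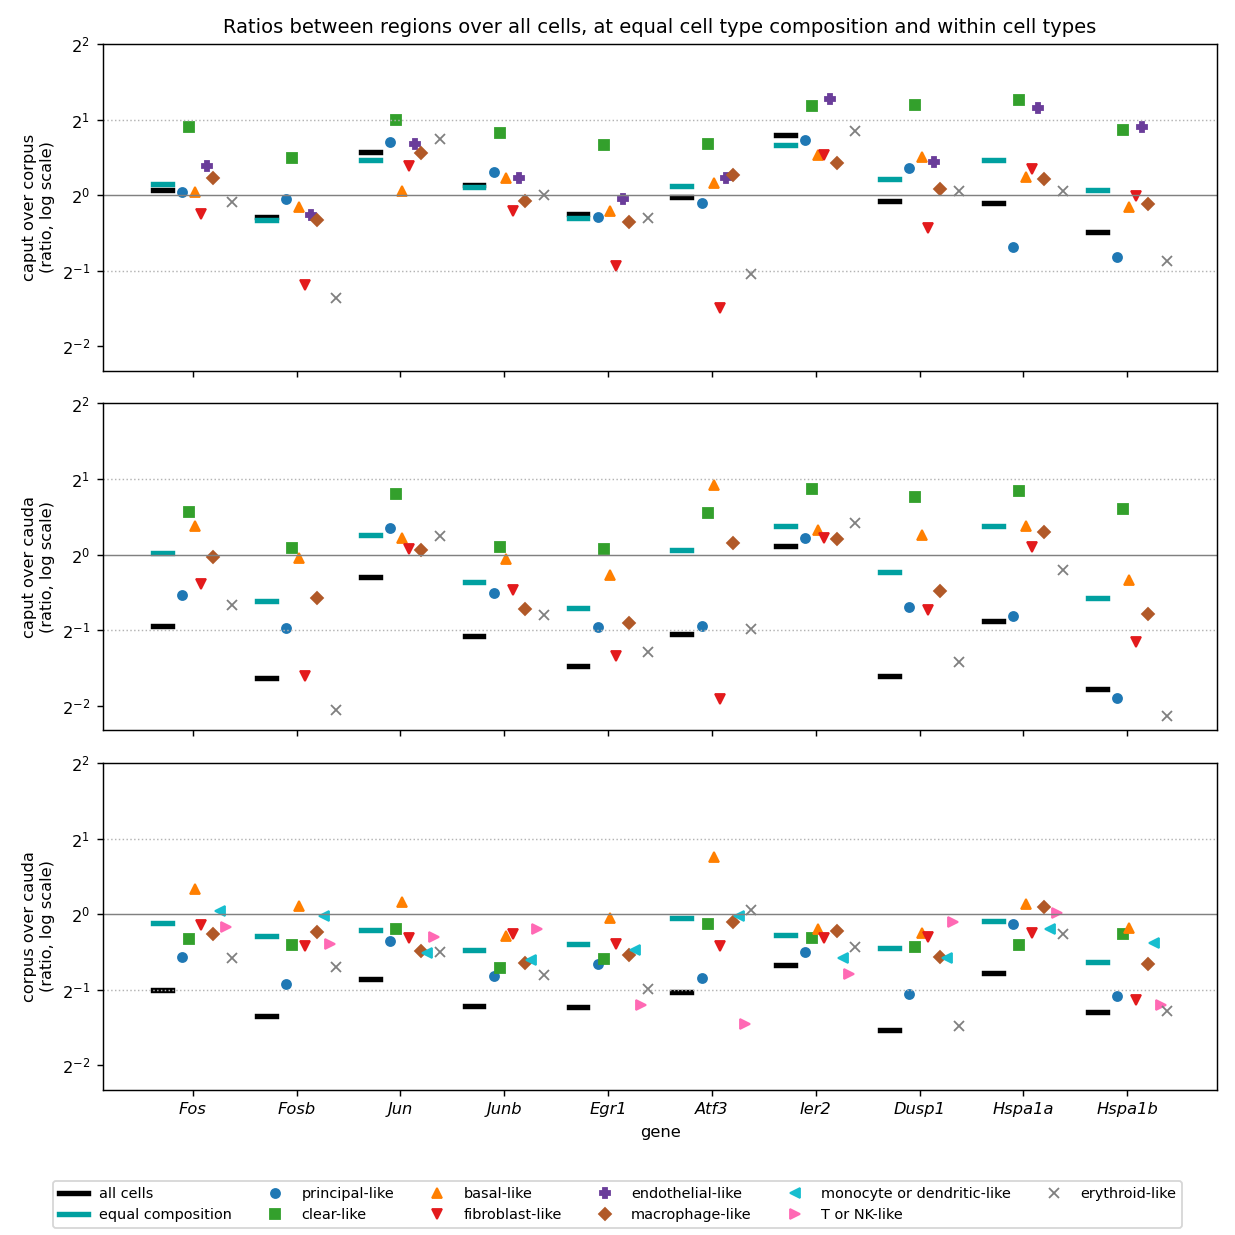
Ratio of each member's level between 2 regions (log axis), 1 panel a pair, with symbols for cell types, a black line for all cells and a teal line for equal weight of 5 cell types; dotted lines mark 2 and 0.5. In the caput over cauda panel the black lines lie near 0.480 and the teal lines near 0.936 in the median, with clear-like symbols above 1 for all 10 members.

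Taking the mean erythroid-like UMIs off every cell, an alternative chosen after seeing the data, moved ratios in several cell types, principal-like and T or NK-like cells among them. The median caput over cauda ratio of macrophage-like cells became 1.01, against 0.848 as reported. Basal-like cells had 8 of 10 caput over cauda ratios above 1, against 6 as reported. Monocyte or dendritic-like cells had 3 of 10 corpus over cauda ratios above 1, against 1 as reported. In principal-like cells 7 of 10 caput over corpus ratios were then above 1, with a median of 1.52, against 5 of 10 and 0.996 as reported. Of the 9 members with UMIs left above the floor, 6 were then lower in caput than in cauda, and Junb stood at 1.02 in place of 0.701 and Jun at 1.53 in place of 1.28. Hspa1b kept a caput over cauda ratio of 0.339. For corpus over cauda, 8 of 9 members of principal-like cells stayed below 1, with Hspa1a at 1.04. For Dusp1 of cauda principal-like cells nothing was left. In T or NK-like cells 5 of the 8 members left had a corpus over cauda ratio above 1 (median 1.05), against 1 of 10 as reported (median 0.785). In clear-like cells 10 of 10 caput over corpus ratios stayed above 1, and in fibroblast-like cells Egr1 had a caput over cauda ratio of 0.423 in place of 0.396.

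Hspa1a and Hspa1b did not keep a fixed proportion. Their reads are uncertain, since 47.1% of the 100-base windows of the Hspa1a transcript and 49.9% of those of Hspa1b occur in the other, although 0% do within the last 500 bases. Over all cells 3.96 Hspa1a UMIs were counted for each Hspa1b UMI in caput (3.78 to 4.16), 3.02 in corpus (2.86 to 3.21) and 2.12 in cauda (2.03 to 2.21). The 3 intervals did not overlap. In principal-like cells the ratios were 3.31, 3.01 and 1.56 in caput, corpus and cauda, in fibroblast-like cells 4.44, 3.46 and 1.86, and in macrophage-like cells 5.72, 4.56 and 2.69. In each of these types the cauda interval lay below those of caput and corpus. In clear-like cells the ratios were 5.56, 4.22 and 4.69, and the cauda interval (3.62 to 6.15) overlapped both others. Basal-like cells had low ratios throughout, 2.46, 1.87 and 1.5. The erythroid-like ratios, 6.25, 3.31 and 1.64, had wide intervals (2.16 to 24.7 in caput, 0.732 to 3.83 in cauda).

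**Figure D5:**
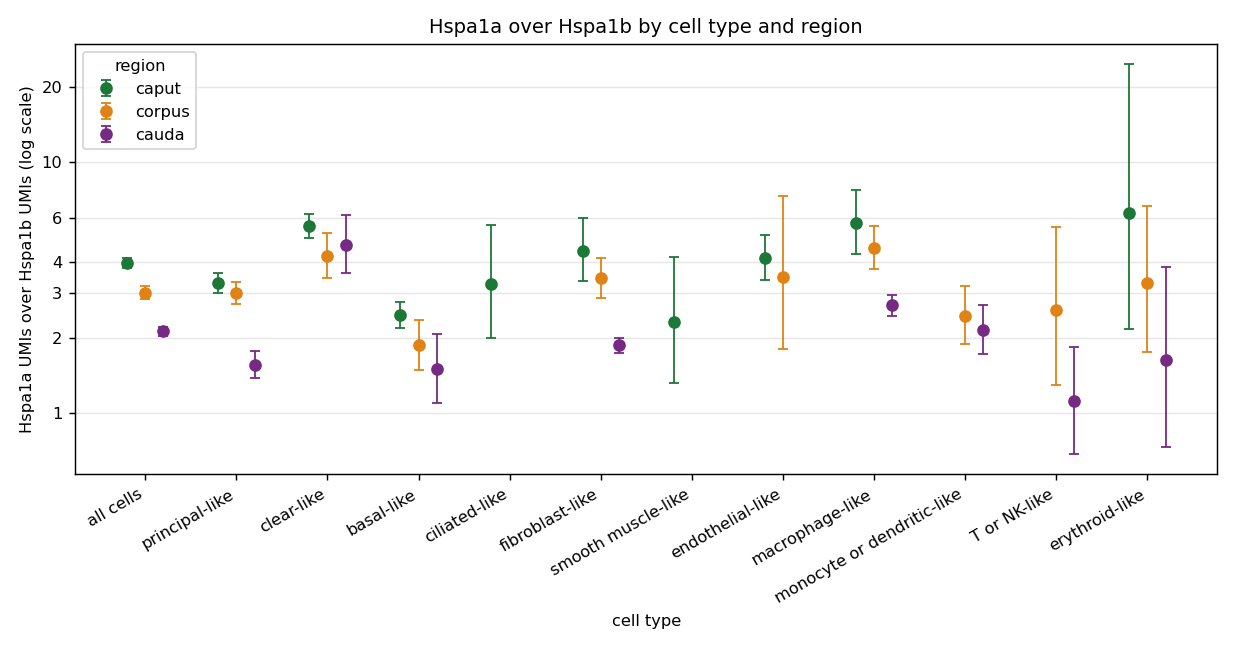
Hspa1a UMIs counted for each Hspa1b UMI by cell type and region, log axis, bars giving exact 95% intervals. Principal-, fibroblast- and macrophage-like cells have their lowest point in cauda (1.56, 1.86 and 2.69), while clear-like cells stay at 4.22 or above.

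Cells of one type differed widely. The median principal-like cell of the caput had 4543 summed CPM, against 2774 in corpus and 7064 in cauda. The median basal-like cell had 18828, 12296 and 10122 CPM in caput, corpus and cauda, and the median fibroblast-like cell 14636, 17324 and 20566 CPM. Between cells thinned to 1000 UMIs, Spearman's correlation of Fos with Jun ran from 0.254 to 0.686 over the 18 combinations of cell type and region examined. That of Hspa1a with Hspa1b ran from −0.08 to 0.36. Hspa1a and Hspa1b have few UMIs in a thinned cell, which limits their correlation, so the ranges of these gene pairs are not compared. Across 26 combinations of cell type and region, the levels of Hspa1a and Hspa1b had Pearson's r = 0.867. The thinned cells of a combination share a library and its free RNA. In principal-like cells the median over the 45 pairs of members was 0.109 in caput, 0.149 in corpus and 0.154 in cauda.

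The mitochondrial share moved with the member level in some types. Splitting corpus clear-like cells into 3 equal parts by mitochondrial share gave 11704, 10313 and 4497 summed CPM at low, middle and high share. Cauda basal-like cells gave 22278, 12897 and 8051 CPM, and corpus principal-like cells 4835, 3694 and 2554 CPM. Caput principal-like cells went the other way, with 4572, 5060.2 and 5537 CPM, and cauda macrophage-like cells had 24425, 24181 and 25419.6 CPM. These totals include mitochondrial UMIs, which by itself lowers the CPM of cells with a high share. Without mitochondrial UMIs in the total, corpus clear-like cells gave 13316.5, 12824 and 6537 CPM, and cauda basal-like cells 23256, 13745 and 9609 CPM. Corpus principal-like cells then had 5291, 4401 and 4036 CPM, and caput principal-like cells 4715, 5305 and 6101 CPM. Cauda macrophage-like cells then had 25480, 25847.5 and 29153 CPM. The part of mitochondrial share in the region differences was not tested beyond leaving out cells over 20%, after which the caput over corpus ratios of clear-like cells kept 10 of 10 above 1 (median 1.61, against 1.84). The caput over cauda ratios then kept 8 of 10 above 1.

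Other genes of the same responses were examined as lists. Of 22 further immediate early transcription factors, 13 were at least 2-fold lower in caput than in cauda over all cells and 1 higher (Egr2), where 21.3% of all genes were lower and 17.7% higher. The median log2 ratio was −1.14, against 0.01 for all genes. Klf4, a zinc-finger factor, had 167 CPM in caput, 300.3 in corpus and 1183 in cauda. Jund, a constitutive partner in AP-1, had 407, 698 and 1363 CPM, Klf2 144, 227 and 577 CPM, and Klf6 627, 471 and 853 CPM. Within fibroblast-like cells 10 of 19 of this list were lower in caput than in cauda and 0 higher, where 7.02% and 3.47% of genes were. Within macrophage-like cells 10 of 18 were lower and 0 higher, where 11.8% and 4.38% of genes were. Within clear-like cells 0 of 16 were lower and 3 higher, where 6.91% and 8.01% of genes were. The lists were chosen with earlier results of these data known, so these counts are descriptions.

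Of 33 induced feedback and signalling genes, 15 were lower in caput than in cauda over all cells and 3 higher (Gadd45a, Dusp4 and Dusp6), where 21.3% of all genes were lower and 17.7% higher, so the share that was higher was below that of all genes. The median log2 ratio was −0.98, against 0.01 for all genes. Zfp36, which speeds the decay of many cytokine and immediate early messages, had 309 CPM in caput, 276 in corpus and 879.6 in cauda. Btg2, an inhibitor of proliferation, had 1286 CPM in caput, 655 in corpus and 1299.7 in cauda, and Gadd45g, a growth arrest gene, 281, 209 and 557 CPM. Nfkbia, the inhibitor of NF-kappa-B, stood at 626, 636 and 766 CPM. In clear-like cells 8 of 29 of these genes were higher in caput than in corpus and 0 lower, where 6.09% and 3.49% of genes were.

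Most other heat shock genes were within 2-fold of each other across regions. Of 25, 24 could be counted, and between caput and cauda 3 were lower in caput (Hspb8, Dnajb1 and Serpinh1) and 1 higher (Hspb1), both shares below those of all genes (21.3% lower and 17.7% higher). The median log2 ratio was 0.15, against 0.01 for all genes. Hspb1, a small heat shock protein, had 635 CPM in caput, 266 in corpus and 235 in cauda. Hsp90ab1, the constitutive HSP90, had 2054, 1582 and 1480.1 CPM, Hsp90aa1 825, 704 and 744 CPM, and Hspa8, the constitutive HSP70, 753, 902 and 1079 CPM. Of 11 integrated stress response genes 2 were higher in caput than in cauda (Ddit4 and Chac1) and 1 lower (Atf5), the first share near the 17.7% of all genes and the second under their 21.3%. Of 10 upstream kinases and constitutive factors 0 were higher and 1 lower (Mapk14), both below the shares of all genes.

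Across the 26 combinations of cell type and region, genes among those most like the mean standardised log2 level of the members, out of 9819, were Zfp36 (Pearson's r = 0.944), Sppl2a (0.927), Vwa5a (0.912), Qk (0.902), Btg2 (0.901), Trafd1 (0.894), Fam168a (0.890), Ppp1r15a (0.882) and Tmem50a (0.872). Of these, Zfp36, Btg2 and Ppp1r15a are in the lists above. Each member correlated with the mean of the other 9 at 0.754 (Ier2) to 0.95 (Fos). The combinations share 3 libraries, their depth and their free RNA, so these values are descriptions.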

How the data were processed

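Cells of 3 epididymal regions, 1 library each, were analysed from the deposited table of UMI counts per gene and cell, which the authors made with STAR 2.7.3a and UMI-tools against GRCm38.p6, per the submitters' processing notes; cell calling and the strand setting are not given in the sources used here. Cells were assigned to regions by the prefix of their column names, and 0 columns belonged to other samples. The members, the gene lists and the cell type markers were chosen with earlier results of these data known, and the gate thresholds after looking at the markers' distributions but not at the members.

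Cells with under 200 genes were left out, and doublets were neither called nor removed. A cell joined 1 of 20 marker classes (183 markers in the matrix, no member among them) when that class's share of its UMIs was at least 10% of the mean share of the 50 highest cells of its library, with at least 3 markers detected and the next class at 50% or less of that level. Classes with at least 50 cells in a region were compared. Counts were summed per region and class and divided by the UMI total; CPM carry exact Poisson intervals, ratios exact conditional binomial intervals and shares of cells exact Clopper-Pearson intervals. With 1 library a region there is no test and no p-value. Ratios are given for every member, in the order caput over corpus, caput over cauda and corpus over cauda. The examples of each list are the 4 genes with the most UMIs, and the genes named for likeness are the 10 with the highest Pearson correlation, on log2(CPM + 10), among genes with at least 500 UMIs. Some genes that these rules name are not reported here. Equal composition is the mean CPM over the 5 classes present in every region. Alternatives were the total without mitochondrial genes, TMM factors, the total without the 50 top genes, a minimum of 500 genes a cell, cells over 20% mitochondrial left out, thinning to 1000 UMIs, a stricter gate (20%, 4 markers, 25%), Leiden clusters in place of gates and a 4-fold rule; subtraction of the erythroid-like background was added after seeing the data. Promoters came from RefSeq tables of GRCm38.p6. Python 3.11.15, numpy 2.4.6, pandas 2.3.3, scipy 1.17.1, scanpy 1.11.5, igraph 0.11.9, scikit-learn 1.9.0, matplotlib 3.10.9, R 4.3.3 and edgeR 4.0.16 (TMM factors only) were used, and the calculations were tested on simulated data.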

Additional observations from a re-analysis of the deposited data

Results flagged for a closer look

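For 2 members the difference between regions had opposite directions in 2 cell types, with both intervals clear of 1 and the ratios at least 4-fold apart. With 1 library a region, the difference between the cell types was not tested. Atf3 was higher in caput than in corpus in clear-like cells (ratio 1.60) and lower in fibroblast-like cells (0.356), which puts the ratios 4.51-fold apart. Atf3 was also higher in caput than in cauda in basal-like cells (1.89) and lower in fibroblast-like cells (0.266), 7.11-fold apart. The cauda basal-like level rested on 59 cells, with a mean of 8.73 and a median of 3 Atf3 UMIs a cell. Between corpus and cauda Atf3 was higher in corpus in basal-like cells (1.69) and lower in T or NK-like cells (0.366), 4.62-fold apart, where the corpus T or NK-like level was below the erythroid-like background per cell. The T or NK-like cells numbered 55 in corpus and 67 in cauda and may be unlike cells. Hspa1b was higher in caput than in cauda in clear-like cells (1.51) and lower in principal-like cells (0.269), 5.64-fold apart.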

How the results depend on the processing

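No paired analysis was possible because each region gave 1 library. Over all cells, 40 of 42 counts of members past the 2-fold rule stayed within 1.5 times the reported count. Several of these counts were 0 as reported, and with the 4-fold rule those could only stay 0. With that rule the 6 members lower in caput than in cauda and the 7 lower in corpus than in cauda became 0 and 0. Member ratios over all cells left their reported counting interval 137 times and stayed in it 43 times. At equal composition, judged by the all-cell interval, 109 ratios moved by more and 101 did not. Within cell types, combinations of member and cell type that were higher in caput than in corpus (6 as reported) numbered 2 without cells over 20% mitochondrial, 10 after thinning, 3 with the stricter gate and 0 with the 4-fold rule. Those lower in caput than in corpus (4 as reported) numbered 1 after thinning, 2 with Leiden clusters and 0 with the 4-fold rule. Those higher in caput than in cauda (0 as reported) numbered 3 with TMM factors, 2 after thinning and 3 with Leiden clusters. Those lower in caput than in cauda (8 as reported) numbered 5 with at least 500 genes a cell, 15 with Leiden clusters and 0 with the 4-fold rule. Those lower in corpus than in cauda (7 as reported) numbered 15 with Leiden clusters and 0 with the 4-fold rule. The 4-fold rule is stricter by construction. With at least 500 genes a cell, erythroid-like cells, which held 3 of the 8 calls, were too few to be compared between caput and cauda, and 5 calls is also the reported count without them. The stricter gate and the mitochondrial limit both left too few endothelial-like cells, which held 2 of the 6 calls higher in caput than in corpus. The cause of the other changes was not tested. Fosb of erythroid-like cells turned round, with a caput over corpus ratio of 1.10 with Leiden clusters and 0.388 as reported. The 19 combinations past the rule outside erythroid-like cells kept their direction in every setting that gave them a value. TMM factors moved every caput over cauda ratio by 0.12 (log2) over all cells and in principal-like cells, by 0.16 in clear-like, 0.14 in basal-like, −0.17 in fibroblast-like and −0.12 in macrophage-like cells.

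After subtraction of the erythroid-like background, too few UMIs remained for the caput over cauda and corpus over cauda ratios of Dusp1 in principal-like cells and for the corpus over cauda ratios of Egr1 and Atf3 in T or NK-like cells. The 1 library a region, the lower depth of corpus and cauda cells, the mitochondrial share and RNA from other cells limit all differences between regions.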
